A study of Homo sapiens with 3 samples.

Results

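The long intergenic non-coding RNAs detected in HCT116 cells were examined after SMARCA4 knockdown. An array probe was counted when its gene name was LINC followed by a number and its signal was marked as well above background on all 3 arrays, and the brightest such probe stood for each name. Of 836 LINC names on the array, 254 were kept by this rule, out of 19501 gene names that met the same detection rule. The RNAs were chosen by their background flags and their brightness on these arrays, so their signal levels are given as a description. HCT116 is an established line of colorectal cancer cells, and the cells were transfected with 1 of 2 small interfering RNAs against SMARCA4 (SMARCA4-KD1 and SMARCA4-KD2) or with a scrambled control (NC). Each condition had 1 array and no replicate, and both comparisons share the NC array. The treatment field of the sample records names PRMT1 for these arrays while the titles and the transfection protocol name SMARCA4, and the number of each knockdown comes from the treatment field. The SMARCA4 probe gave 3960, 4129 and 14026 on the SMARCA4-KD1, SMARCA4-KD2 and NC arrays, and the knockdowns were at 26.6% and 28.8% of NC after scaling, and PRMT1 was at 120% and 129%. Of 9 colorectal epithelial markers, 7 were well above background on all arrays, and VIL1 and CDH17 were on none. Of 7 markers of other cell types, 4 were well above background on all arrays, with a summed signal over the 7 of 1042, 1072 and 746 in SMARCA4-KD1, SMARCA4-KD2 and NC, and COL3A1, PECAM1 and GFAP were on none. The part of these markers in the results was not tested. The knockdown arrays were part of slide 1 and NC was part of slide 2, so slide and knockdown cannot be told apart.

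LINC symbols are assigned to long transcripts from between protein-coding genes for which no protein was known at the time. Many are transcribed at low levels and in few cell types, some from enhancers or from the back of a protein-coding promoter, and some act in the nucleus on nearby genes while others act in the cytoplasm on proteins or other RNAs. A number of them were later found to encode a small protein and were renamed. SMARCA4 (BRG1) is an ATPase of the SWI/SNF chromatin remodeling complex, which moves nucleosomes at promoters and enhancers. Of the 254 names, 252 matched a gene of the RefSeq table (GRCh38.p14), and 48 of these carried another symbol there. Of the matched genes, 238 were listed as lncRNA, 11 as protein coding and 3 as a pseudogene. The new symbols of 10 ended in -DT, for a transcript that leaves a protein-coding promoter in the opposite direction, and those of 5 ended in -AS, for an antisense transcript.

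The values below come from 60-base probes, and a few of their sequences are shown as the array files give them, with their hg19 positions. LINC00640 and LINC00624 had the largest differences below and above NC in both knockdowns, and LINC00592 lies next to keratin genes that were also lower. The probes of LINC00482, LINC01315 and LINC01136 are shown together because probes of 1 name gave like or unlike values. Capitals mark the hexamers AATAAA or ATTAAA, which in a transcript are the usual signals for cleavage and polyadenylation. This was searched on the printed strand alone, with overlapping matches merged. A hexamer was present in the chosen probe of 45 of the 254 LINC RNAs (17.7%) and of 2280 of all 19501 genes (11.7%).
LINC00640 (chr14:51832186-51832245, + strand): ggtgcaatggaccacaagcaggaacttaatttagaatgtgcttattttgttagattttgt
LINC00592 (chr12:52617464-52617523, + strand): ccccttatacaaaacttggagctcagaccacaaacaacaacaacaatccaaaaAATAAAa
LINC00624 (chr1:146854022-146854081, - strand): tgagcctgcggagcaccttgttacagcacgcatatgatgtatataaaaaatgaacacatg
LINC00482, brightest probe (chr17:79276637-79276696, - strand): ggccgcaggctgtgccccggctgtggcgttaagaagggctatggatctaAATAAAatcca
LINC00482, upstream probe (chr17:79282985-79283044): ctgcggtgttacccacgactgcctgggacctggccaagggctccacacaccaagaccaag
LINC01315, brightest probe (chr22:42760567-42760626, - strand): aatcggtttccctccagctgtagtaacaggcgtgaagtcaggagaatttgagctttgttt
LINC01315, second probe (chr22:42760829-42760888): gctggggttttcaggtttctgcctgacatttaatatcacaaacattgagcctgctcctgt
LINC01136, brightest probe (chr1:203269644-203269703, - strand): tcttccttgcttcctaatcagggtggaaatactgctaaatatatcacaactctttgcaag
LINC01136, second probe (chr1:203270294-203270353): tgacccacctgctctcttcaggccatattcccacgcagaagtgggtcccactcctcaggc

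The signals of the LINC RNAs lay low in the range of the arrays. After each array was scaled to its 75th percentile, their median level was -1.34 on the log2 scale, beside 1.08 over all 19501 genes, and 76 of the 254 lay above the percentile. A probe's signal depends on its sequence as well as on the RNA, so these levels do not order the transcripts by abundance. The brightest probe was that of LINC01356, a transcript next to SLC16A1, with levels of 7.46, 7.64 and 7.86 in SMARCA4-KD1, SMARCA4-KD2 and NC. It was therefore lowest in SMARCA4-KD1 and highest in NC, but by less than 1.5-fold. LINC01001, also among the 6 brightest, had signals of 8218, 8775 and 9896, and its probe is listed for 4 RefSeq genes, so the signal cannot be given to 1 of them. The other 4 of the 6 were LINC00493, LINC01420, LINC00116 and LINC00869, and each was higher in both knockdowns than in NC by less than 1.5-fold.

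Of 7 LINC names on a list of those now known to encode small proteins, 4 were detected on all arrays. None of the 4 was at least 1.5-fold apart from NC in both knockdowns, beside 14.3% of all genes. The list does not hold all 11 names that RefSeq lists as protein coding. LINC00341, which is among the 11 but not on the list, was at least 1.5-fold lower in both. LINC00493, which encodes the small mitochondrial protein SMIM26, had signals of 27714, 27388 and 20558 in SMARCA4-KD1, SMARCA4-KD2 and NC. Its mean log2 difference of 0.36 ± 0.10 (SE) passed the limma test of both knockdowns against NC (adjusted p = 0.0299). LINC00998, which encodes the membrane protein SMIM30, gave 3682, 3366 and 2554 and passed as well (0.40 ± 0.11, adjusted p = 0.0298). For both RNAs the knockdown arrays lay close together and above NC. LINC01420, which encodes the P-body protein NBDY, gave differences of 0.27 and 0.41 (adjusted p = 0.0525), and LINC00116, which encodes the mitochondrial inner membrane protein mitoregulin, gave 0.14 and 0.15 (adjusted p = 0.314). The median of the 4 was 0.35 on the log2 scale, beside 0.03 over all genes.

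Of 8 LINC names with a described molecular function, 4 were detected. At the brightest probe none was at least 1.5-fold apart from NC in both knockdowns, beside 14.3% of all genes. LINC00657 (NORAD), an abundant cytoplasmic RNA that binds Pumilio proteins, had signals of 1284, 1014 and 722. It was higher in both knockdowns, by 0.75 and 0.46 on the log2 scale, and passed the limma test (adjusted p = 0.0232). LINC01578 (CHASERR), which is transcribed next to CHD2 and limits its expression, gave 532, 416 and 282, or 0.83 and 0.53 (adjusted p = 0.0221). CHD2 itself, an ATP-dependent chromatin remodeler, differed from NC by -0.09 and -0.04. LINC01021 (PURPL), an RNA induced by p53, was above NC at all 4 of its passing probes. The dimmer ones had weak signals and gave 0.68 and 0.81 (past 1.5-fold in both), 0.46 and 0.56, and 0.18 and 0.03. The mean over its probes and both knockdowns was 0.37. LINC00152 (CYTOR), whose probe is also listed for the near-identical MIR4435-2HG, gave -0.05 and -0.16, and the brightest LINC01021 probe gave 0.25 and 0.02. Neither passed the test (adjusted p = 0.506 and 0.658).

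At 1.5-fold, the threshold of the study, fewer LINC RNAs were lower than higher in both knockdowns at once, while the balance in SMARCA4-KD1 alone turned with the scaling. In SMARCA4-KD1, 21 were lower (8.27%) and 32 higher (12.6%), beside 11.9% and 10.1% of all genes. With the 75th percentile taken over the probes well above background on all arrays, these counts were 26 and 24 (10.2% and 9.45%), beside 13.7% and 8.27% of all genes. In SMARCA4-KD2, 12 were lower (4.72%) and 32 higher (12.6%), beside 9.27% and 9.21% of all genes. In both knockdowns, 7 were lower (2.76%) and 20 higher (7.87%), beside 7.51% and 6.76% of all genes. The median over the 254 of the mean log2 difference was 0.09, beside 0.03 over all genes. With 1 array per condition these counts have no test. They rest on the background correction and on the scaling, since for both knockdowns a normexp correction left 3 lower and 9 higher (1.18% and 3.54%, beside 4.22% and 4.57% of all genes), and scaling to 8 spike-in controls, which shifted the median of all genes to 0.34, gave 4 lower and 60 higher (1.57% and 23.6%, beside 2.49% and 21.0%).

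The limma fit of both knockdowns against NC, with Benjamini-Hochberg adjustment over all 19501 genes, called 16 LINC RNAs lower and 31 higher. These are 6.30% and 12.2% of the 254, beside 12% and 14.5% of all genes. The split between lower and higher calls moved when the percentile was taken over probes well above background, where calls over all genes rose as well. Of the LINC RNAs at least 1.5-fold lower in both knockdowns, all 7 were called, and of the 20 higher, 15 were called. The RNAs that met both criteria were 2.76% and 5.91% of the 254, beside 6.89% and 6.40% of all genes. The fit has 1 residual degree of freedom and assumes that NC cells vary like the knockdown arrays. When detection on at least 1 array was enough to be tested, limma called 0 LINC RNAs and 0 genes of any kind (smallest adjusted p = 0.0676), while 79 of 335 LINC RNAs had an unadjusted p under 0.05 (23.6%, beside 31.6% of all genes).

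LINC00640 was the LINC RNA with the largest difference below NC in both knockdowns. It lies between TMX1 and FRMD6 on chromosome 14. The signals were 254 and 295 in the knockdowns against 776 in NC, or 30.9% and 37.2% of NC, and the mean log2 difference was -1.56 ± 0.16 (SE, adjusted p = 0.00128). Both knockdown arrays lay well below NC. LINC00341, an older symbol that RefSeq lists for SYNE3, the gene of the nuclear envelope protein nesprin-3, gave 468, 545 and 1015 (-1.20 and -0.93, adjusted p = 0.00348). These were the brightest of the 7 RNAs that were lower.

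The other RNAs that were lower in both knockdowns had weak signals. LINC00592 lies among keratin genes on chromosome 12 and gave 112, 115.5 and 202 (-0.93 and -0.84, adjusted p = 0.0103). LINC00882 was measured by 4 probes, and its brightest, at chr3:106828781-106828840, gave 56.1, 61.1 and 103 (-0.96 and -0.78, adjusted p = 0.0220). Of its other probes, 1 lies at chr3:106959290-106959349 and gave -0.99 and -0.74, and another gave -1.01 and -0.68. The remaining probe, the dimmest, gave -0.33 and -0.47.

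LINC01503 gave 25.6, 27.6 and 56.3 (-1.22 and -1.06, adjusted p = 0.0167), and its second probe gave -0.60 and -0.92. LINC01004 gave 30.1, 23.9 and 55.1 (-0.96 and -1.24, adjusted p = 0.0220), and LINC01352 gave 22.8, 18.3 and 38.4 (-0.84 and -1.10, adjusted p = 0.0422). These signals are close to the lowest signal marked as well above background on the arrays, which was 16.9, 16.4 and 17.7. Under the normexp correction the 3 RNAs were less than 1.5-fold below NC, with mean log2 differences of -0.54, -0.41 and -0.35. LINC01482 came next in order with 323, 289 and 438 (-0.53 and -0.63, adjusted p = 0.0235), which was under 1.5-fold in SMARCA4-KD1.

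LINC00624 showed the largest difference above NC in both knockdowns. It lies between CHD1L and BCL9 on chromosome 1, and its signals on the SMARCA4-KD1, SMARCA4-KD2 and NC arrays were 167, 104 and 28.2. It was 5.60-fold and 3.60-fold higher (2.17 ± 0.28 on the log2 scale, adjusted p = 0.00254). Under the normexp correction it was still higher, by 1.29 and 0.86. CHD1L and BCL9 differed from NC by 0.21 and 0.30 and by 0.58 and 0.18.

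LINC00482 combined a bright signal with a large difference, at 2954, 2561 and 814 (3.42-fold and 3.08-fold, adjusted p = 0.000621). That was the smallest adjusted p of any LINC RNA. Of its 3 probes, the one that gave this value lies nearest to the 3' end and holds an AATAAA. The upstream probe whose sequence is shown gave 92.1, 82.0 and 61.7 (0.49 and 0.38). The third probe gave 232, 213 and 196 (0.16 and 0.09). All 3 probes were higher in both knockdowns than in NC, but only the brightest passed 1.5-fold. The mean over the 3 probes and both knockdowns was 0.75 on the log2 scale in place of 1.70. The neighboring gene BAHCC1 was lower, by -0.55 and -0.62.

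LINC01136 was renamed BTG2-DT, since it is transcribed away from the promoter of BTG2, an antiproliferative gene induced by p53. It gave 98.8, 98.7 and 31.2 (2.98-fold and 3.10-fold, adjusted p = 0.00254), and its second probe gave 63.0, 53.3 and 20.6 (1.52 and 1.34 on the log2 scale). The knockdown arrays were close to each other at both probes, and both lay above NC. The NC signals were weak, near the lowest signal well above background on that array (17.7). Under the normexp correction the brightest probe was higher by 0.74 and 0.77. BTG2 differed from NC by 0.29 and 0.46 (adjusted p = 0.0506).

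LINC01315 had the brightest probe among the RNAs at least 1.5-fold higher, with 8964, 8312 and 4175 (2.02-fold and 1.95-fold, adjusted p = 0.00128). Its second probe lies at chr22:42760829-42760888, upstream of the brightest, and gave 96.7, 79.5 and 92.0 (-0.01 and -0.24). The 2 probes of this RNA therefore differed in direction, and the mean over both was 0.43 on the log2 scale in place of 0.99. LINC01234, an RNA studied in tumors, gave 1013, 1074 and 442 (2.16-fold and 2.38-fold, adjusted p = 0.00160). Its other 3 probes were also above NC, between 0.30 and 0.61 on the log2 scale, and 1 value passed 1.5-fold.

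LINC00839 gave 87.4, 76.7 and 32.0 (1.36 and 1.23, adjusted p = 0.00597). LINC01540, now named GAPLINC after gastric adenocarcinoma, gave 41.4, 42.8 and 19.7 (0.99 and 1.09, adjusted p = 0.0232), and LINC01547 gave 51.2, 45.3 and 24.0 (1.01 and 0.89, adjusted p = 0.0277). In each of the 3 RNAs both knockdown arrays lay above NC, and none reached 1.5-fold in both knockdowns under the normexp correction. The remaining 12 RNAs that were higher in both knockdowns lay between 0.59 and 0.92 in SMARCA4-KD1, apart from LINC01436 at 2.51. Of the 27 RNAs apart from NC in both knockdowns, 12 (3 lower and 9 higher) kept their direction and passed 1.5-fold with normexp. Over all genes, 4.22% were lower and 4.57% higher in both knockdowns with normexp, in place of 7.51% and 6.76%. Under every alternative at 1.5-fold other than the spike-in scaling, 10 of the 27 did so, though detection on at least 1 array left all 27 in place. The share of all genes kept in this way is not given, so these counts are a description. These 10 were LINC00640, LINC00341 and LINC00592 below NC, and LINC00624, LINC00482, LINC01136, LINC01234, LINC00857, LINC01128 and LINC00540 above it.

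Other passing probes of a name were compared with its brightest, which was chosen among them by level and not by its difference from NC. No share over all genes with several probes is given, so the counts are a description. Several passing probes were present for 75 of the 254 RNAs. Among the RNAs apart from NC in both knockdowns, 11 had 17 other probes, of which 16 had a mean difference in the same direction and 6 also passed 1.5-fold in both. Among the other RNAs, 64 had 106 other probes, of which 63 had the same direction as the brightest. Of these 106 probes 11 passed 1.5-fold in both knockdowns, 7 in the direction of the brightest and 4 against it. The 4 were 1 probe each of LINC00240, LINC00887, LINC00969 and LINC01405, named after their values were seen. The largest of these differences was at LINC00887, whose dimmer probe gave 57.1, 62.9 and 177 (-1.72 and -1.52) while its brightest gave 445, 455 and 408 (0.04 and 0.12). The probes of 1 RNA share the sample and in part the transcript, so they are no replicates. In no RNA did a pair of probes pass 1.5-fold in both knockdowns in opposite directions.

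Of 24 LINC names that have been studied in tumors, 14 were detected. In both knockdowns 0 of them were at least 1.5-fold lower, and LINC01234 and LINC00857 were at least 1.5-fold higher. Of all genes 7.51% were lower and 6.76% higher, so counts among 14 names are a description of the list. LINC00857 gave 550, 589 and 312 (0.73 and 0.88, adjusted p = 0.00686), and its second probe gave 39.2, 41.4 and 22.97 (0.69 and 0.82), so all probe signals of the knockdown arrays lay above NC. The limma test called 7 of the 14, beside 18.5% of the 254 LINC RNAs and 26.5% of all genes, and the median of the list was 0.21 on the log2 scale, beside 0.03 over all genes.

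The knockdowns differed from each other most for dim RNAs. LINC01436, next to SETD4 and RUNX1 on chromosome 21, gave 123, 35.2 and 20.4 in SMARCA4-KD1, SMARCA4-KD2 and NC, so most of its mean difference came from 1 array (adjusted p = 0.0797). LINC00421 gave 18.9, 57.4 and 28.0, which was below NC in SMARCA4-KD1 and above it in SMARCA4-KD2. LINC01191 gave 19.2, 40.9 and 24.8, LINC01324 gave 18.4, 32.9 and 20.3, and LINC00200 gave 27.2, 46.3 and 29.1. In these 3 SMARCA4-KD2 was highest and SMARCA4-KD1 lowest, and all signals were weak. When the 254 RNAs were split by level into tiers of 85, 84 and 85, the SD between the knockdowns was 0.30 in the dimmest tier, 0.17 in the middle and 0.13 in the brightest, beside 0.27, 0.21 and 0.13 for all genes within the same levels.

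The smaller share of LINC RNAs lower in both knockdowns was seen in each tier. In the dimmest tier 3 of 85 were lower (3.53%), beside 9.23% of all genes at the same levels. In the middle tier 2 of 84 were lower (2.38%, beside 10.0%), and in the brightest 2 of 85 (2.35%, beside 6.29%). The RNAs higher in both knockdowns were 7 (8.24%), 5 (5.95%) and 8 (9.41%), beside 4.48%, 6.68% and 7.34% of all genes. The differences in share have no test.

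Protein-coding genes next to or overlapping a LINC RNA in RefSeq were read from the same arrays. In 357 pairs of a LINC RNA and a measured neighbor, over 220 LINC RNAs, the mean differences had a Pearson r of 0.09 and a Spearman rho of 0.06 across pairs. The pairs share arrays and some share a gene, so these are descriptions. The differences had the same sign in 51.8% of the pairs. Of the RNAs apart from NC in both knockdowns, 25 had 39 measured neighbors, and 5 pairs of 4 RNAs passed 1.5-fold in both knockdowns on both sides. These 5 were 12.8% of the 39, beside 16.2% of the neighbors in all 357 pairs and 14.3% of all genes past 1.5-fold in both knockdowns, and the pairs are given as a description.

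The keratin cluster on chromosome 12 held 2 of these 5 pairs. LINC00592 lies between KRT80 and KRT7, which encode epithelial keratins, and all 3 were lower than NC in both knockdowns. KRT80 differed by -1.91 and -1.74 (adjusted p = 0.000847) and KRT7 by -0.73 and -0.78 (adjusted p = 0.00270). LINC00294 and its neighbor CSTF3, a subunit of the cleavage stimulation factor, were both higher. LINC00294 gave 1210, 1200 and 757 (0.59 and 0.63, adjusted p = 0.00994) and CSTF3 differed by 1.46 and 1.29 (adjusted p = 0.000850). LINC01431 and NXT1, a cofactor of mRNA export, were higher as well, with 60.9, 58.6 and 38.0 for LINC01431 (0.59 and 0.59, adjusted p = 0.0882) and 0.86 and 0.78 for NXT1 (adjusted p = 0.00220). LINC00299 went against its neighbor. It gave 53.6, 47.9 and 30.2 (0.75 and 0.63, adjusted p = 0.0686), while ID2, an inhibitor of helix-loop-helix transcription factors, differed by -1.09 and -1.01 (adjusted p = 0.00106). LINC01431 and LINC00299 did not pass the limma test, and neither reached 1.5-fold under the normexp correction.

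Promoters from RefSeq, 250 bases before to 50 after the start, were found for 188 of the 254 RNAs. Their median GC content was 55.3% with 8 CpG, beside 58.7% with 14 in all 35116 promoters and 50% with 5 in promoters of genes listed as lncRNA. The letters CCAAT, the core of a box common in housekeeping promoters, were searched on both strands. They were present in 80 of the 188 (42.6%) and in 34.6% of all promoters. Of 16 promoters of RNAs higher in both knockdowns 10 held them (62.5%), and of 5 promoters of RNAs that were lower 0 did. GGGCGG, the GC box, was in 10 of the 16, in 1 of the 5 and in 45.0% of all promoters, and TGANTCA, the AP-1 site, in 0 of the 16, 0 of the 5, 9.57% of the 188 and 7.71% of all promoters. These counts are small and were compared with no test. The promoters of 3 RNAs that were higher are shown in GRCh38.p14 as an example, with CCAAT or its reverse complement in capitals.
LINC01315 promoter (chr22:42369159-42369458, - strand): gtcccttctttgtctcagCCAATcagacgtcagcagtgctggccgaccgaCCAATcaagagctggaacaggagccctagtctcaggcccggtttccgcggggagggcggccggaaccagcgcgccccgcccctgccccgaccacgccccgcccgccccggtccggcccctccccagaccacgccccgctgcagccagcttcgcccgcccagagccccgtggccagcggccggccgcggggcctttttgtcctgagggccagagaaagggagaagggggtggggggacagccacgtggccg
LINC01136 promoter (chr1:203305276-203305575, - strand): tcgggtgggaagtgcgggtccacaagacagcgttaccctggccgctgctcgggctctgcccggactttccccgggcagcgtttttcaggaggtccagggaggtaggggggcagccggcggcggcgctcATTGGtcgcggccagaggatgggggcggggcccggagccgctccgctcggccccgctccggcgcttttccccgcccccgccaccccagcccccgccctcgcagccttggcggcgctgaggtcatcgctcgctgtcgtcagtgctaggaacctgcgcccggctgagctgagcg
LINC00839 promoter (chr10:42475241-42475540, + strand): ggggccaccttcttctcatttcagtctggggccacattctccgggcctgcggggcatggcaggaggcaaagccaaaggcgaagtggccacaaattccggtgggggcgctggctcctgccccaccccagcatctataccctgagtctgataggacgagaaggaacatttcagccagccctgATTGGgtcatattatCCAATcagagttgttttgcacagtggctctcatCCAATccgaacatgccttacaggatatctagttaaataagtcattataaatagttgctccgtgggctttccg

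The rule left out RNAs that were near background on any array. The dimmest RNAs inside it were LINC00163, LINC00487 and LINC01389, with signals between 17.8 and 24.0. The brightest just outside were LINC01280, with 170, 23.2 and 21.3, LINC01038, with 18.5, 324 and 6.54, and LINC00888, with 16.7, 28.6 and 56.3. LINC01280 and LINC01038 were not well above background in NC, and each had its high value on 1 knockdown array. A LINC name had a probe well above background in both knockdowns but not in NC in 18 cases and in NC alone in 13. Against the lowest signal well above background, 8 of the 18 were at least 1.5-fold higher in the mean of the knockdowns and 6 of the 13 at least 1.5-fold lower. Their directions follow from the detection pattern. No share over all genes with the same pattern is given, so the counts are a description. LINC00304 gave 52.8, 50.2 and 3.54 and was at least 2.80-fold higher. LINC00654 gave 6.82, 3.47 and 45.2 and was at least 2.84-fold lower, and LINC00950 gave 17.4, 12.3 and 47.9 and was at least 2.95-fold lower. These 3 were named after their values were seen, and the detection pattern in effect places both knockdown arrays on the same side of NC. Such RNAs are outside the 254, so the counts above hold for RNAs detected in all conditions.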

How the data were processed

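The 3 arrays, 1 for each condition, were of the Agilent SurePrint G3 Human Gene Expression type (version 3) with 1 color, Cy3. The authors deposited scanner files with the intensity of each of 62976 spots, background-subtracted and detrended by Agilent Feature Extraction 10.7.1.1, and a series-level table of intensity values that differed from them by over 0.1% in 1 of 57901 probes with 1 spot. Flags for background and the error of the signal, a further intensity column, were used as deposited. Names and hg19 positions are those of the array files. RefSeq (GRCh38.p14) gave current symbols, neighbors and promoters only, and its other coordinates were not used. The sequence of 1 probe of LINC00482 is not reported here. No comparison columns of the authors were present.

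Controls and spots with an outlier flag were dropped, and processed signals of the spots of each probe were averaged as log2 values. Each array's 75th percentile over all probes was then subtracted, with no pseudocount. Of 58201 probes, 46.8%, 47.3% and 45.7% were well above background in SMARCA4-KD1, SMARCA4-KD2 and NC, and 0 spots were saturated. With 3 arrays the precision is limited by their number. For a single knockdown, differences from NC were read at 1.5-fold, untested. Both knockdowns were compared with NC by limma 3.58.1 (R 4.3.3) with an intensity trend, over 19501 genes. The steps were tested on simulated data. Python 3.11.15, numpy 2.4.6, pandas 2.3.3 and matplotlib 3.10.9 were used.

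The RNAs, gene lists and rules were chosen with earlier results of these data known. The RNAs named were the 8 lowest and the 8 highest by the smaller of both differences, the 6 brightest, the 5 with the largest difference between knockdowns, those of the lists of small proteins and described functions, those studied in tumors that passed 1.5-fold in both knockdowns, those whose probes disagreed at 1.5-fold, those next to a protein-coding gene where both passed 1.5-fold, and the 3 nearest the detection limit on either side. The alternatives were quantile normalization, normexp (offset 50), the percentile over probes well above background, the series-level table, the mean over probes, detection on at least 1 array, a 2-fold threshold, and, in limma, a fit without the trend and the unadjusted p. Scaling to 8 spike-in controls was added after seeing the data.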

Additional observations from a re-analysis of the deposited data

How the results depend on the processing

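The counts at 1.5-fold and in limma stayed within 1.5 times their reported values with quantile normalization, the percentile over probes well above background, the series-level table and the mean over probes, but with the percentile over probes well above background the balance in SMARCA4-KD1 turned, to 26 lower and 24 higher. With normexp the counts of LINC RNAs lower and higher were 7 and 15 for SMARCA4-KD1, 3 and 11 for SMARCA4-KD2, and 3 and 9 for both. The shares of LINC RNAs were 2.76% and 5.91%, 1.18% and 4.33%, and 1.18% and 3.54%. Those of all genes were 6.63% and 6.88%, 4.97% and 5.76%, and 4.22% and 4.57%. At 2-fold the counts were 3 and 9, 4 and 7, and 2 and 5. The shares of LINC RNAs were 1.18% and 3.54%, 1.57% and 2.76%, and 0.787% and 1.97%. Those of all genes were 3.29% and 2.34%, 2.19% and 1.95%, and 1.74% and 1.46%. With the spike-in controls, which lay at -0.30 and -0.32 relative to NC after the percentile scaling, the counts were 8 and 75, 6 and 90, and 4 and 60. The shares of LINC RNAs were 3.15% and 29.5%, 2.36% and 35.4%, and 1.57% and 23.6%. Those of all genes were 4.75% and 26.4%, 3.12% and 27.8%, and 2.49% and 21.0%. With detection on at least 1 array, which raised the LINC RNAs to 335, the counts were 32 and 48, 23 and 46, and 17 and 24. The shares of LINC RNAs were 9.55% and 14.3%, 6.87% and 13.7%, and 5.07% and 7.16%. Those of all genes were 12.3% and 11.2%, 9.74% and 10.1%, and 8.03% and 6.35%. The median over the LINC RNAs was 0.031 with normexp, 0.039 with the percentile over probes well above background and 0.40 with the spike-in controls, and over all genes it was 0.01, -0.02 and 0.34. The LINC RNAs called by limma were 95 with the spike-in controls (37.4%, beside 46.2% of all genes), 24 without the trend (9.45%, beside 11.7%), 82 at an unadjusted p (32.3%, beside 39.6%) and 0 with detection on at least 1 array. For normexp, the trend and the spike-in controls the cause was not tested. Of the 252 values of the named RNAs under the alternatives, 206 moved by less than the extraction error and 46 by more. No RNA past 1.5-fold changed its direction. Many of the 206 could not have moved by more, so their count is no measure of robustness. Detection on at least 1 array left every named value unchanged, as did averaging probes wherever only 1 probe passed. The series-level values shifted all named RNAs by the same amount, below the smallest extraction error (0.20). Scaling to detected probes alone did the same. No paired analysis was possible because each group has 1 array, and for the same reason no array could be left out. Weak signals limit the precision, since the dimmest RNAs were near the lowest signal well above background.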

Other observations

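Other non-coding classes on the same arrays gave these values, beside 7.51% of all genes lower and 6.76% higher in both knockdowns and a median of 0.03. Of 383 detected antisense names (-AS), 21 were at least 1.5-fold lower and 40 at least 1.5-fold higher in both knockdowns (5.48% and 10.4%), with a median difference of 0.03. The 18 detected hosts of small nucleolar RNAs (SNHG), which are spliced transcripts with small nucleolar RNAs in their introns, had a median of 0.33, with 0 lower and 3 higher (16.7%). The 15 detected miRNA host genes had a median of 0.10, with 1 lower and 1 higher (6.67% each). Of 814 detected names of uncharacterized loci (LOC), 73 were lower (8.97%) and 57 higher (7%), with a median of -0.01.

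The 254 LINC RNAs lay on 23 chromosomes, with the most on chromosome 1 (28), chromosome 2 (22) and chromosome 3 (16). On chromosome 13, 13 of 100 LINC names on the array were detected, and on chromosome 1, 28 of 69. Of the 7 RNAs lower in both knockdowns, 2 lay on chromosome 14, and of the 20 higher, 4 lay on chromosome 1. These were the chromosomes with the most such RNAs, and they held 14 and 28 of the 254. No share over all genes by chromosome is given, so the counts are a description.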
